A study of Mus musculus with 4 samples.

Results

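The m6A peaks called in hearts of Wtap knockout mice are described here on their own, as 21179 peaks in 10904 genes. They are all peaks of the list made from the knockout immunoprecipitation (IP) against its own input, out of 41945 peaks in the 2 lists of the series. The hearts came from mice aged 4 days and with the genotype label Wtap-CKO (the sample titles carry WBKO instead, which the labels do not explain), and the RNA of 8 mice was pooled into 1 IP library, made with an anti-m6A antibody, and 1 input library. The sources used here do not give the Cre line behind the knockout, so the cells that lost Wtap cannot be named from the labels, and cells without recombination may be part of the pooled hearts. The control list of the series (7 pooled Wtapflox/flox mice of the same age) is not compared here. With 1 IP and 1 input there is no replicate and no test. Intervals are exact (Clopper-Pearson) for shares and by order statistics for medians, at 95%, and they cover counting error only and treat peaks as independent. Depth is unknown because the list holds no read counts, so a gene without a peak may lack the mark, or its RNA may have been too scarce in the pool for a call; these cannot be told apart. Nor can fewer cells of a type and less RNA per cell.

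N6-methyladenosine (m6A) is a methyl mark that a nuclear complex places on adenosines of RNA, mostly within a short motif around GGAC. METTL3 and METTL14 form the catalytic core, and WTAP holds the core to its regulatory partners VIRMA, ZC3H13, HAKAI and the RBM15 proteins. The mark is erased by FTO and ALKBH5 and bound by YTH proteins, and it is best known for shortening the life of messenger RNAs. In mRNA it is typically densest near stop codons and in long internal exons. In MeRIP-seq, fragmented RNA is pulled down with an m6A antibody and sequenced beside its input, and a peak is a stretch where the IP is enriched. The fold of a peak below is the authors' IP over input value, and q is their adjusted p. A fold is no transcript level, and a small p at a modest fold can come from an abundant RNA.

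Among the shortest peaks of the list were those of microRNA genes, which are shown by sequence because here a peak can be set against a whole annotated RNA. Of the 3 microRNA genes matched in RefSeq, 2 had a peak exactly as long as the hairpin. The peak of Mir675, the microRNA gene inside the imprinted H19 RNA, was 84 bases wide (chr7:142130801-142130884, minus strand, fold 3.07, log10 q -2.63), the length of the RefSeq hairpin. All 84 of its bases also lay in a peak of H19 on the same strand (chr7:142130390-142131880, 1410 exonic bases, fold 12.1), so the list counts this stretch under both genes. The peak of Mir671 was 98 bases wide (chr5:24797112-24797209, plus strand, fold 9.38, log10 q -3.15), again the hairpin's length. All 98 bases were shared with a peak of Chpf2 on the same strand and with a peak of Smarcd3 on the other strand (fold 14.3). The peak of Mir8114 (chr1:153775699-153775782, plus strand, fold 3.05) was 84 bases wide against a hairpin of 111, and lay wholly within a peak of Glul on its strand and opposite a peak of Teddm2. In the hairpins below, from RefSeq GRCm38.p6 and written 5′ to 3′, capitals mark GGAC on the RNA strand.
Mir675 hairpin: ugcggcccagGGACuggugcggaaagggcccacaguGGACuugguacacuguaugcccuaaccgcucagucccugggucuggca
Mir671 hairpin: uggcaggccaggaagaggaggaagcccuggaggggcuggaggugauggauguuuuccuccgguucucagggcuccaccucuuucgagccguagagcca
The Mir675 hairpin held GGAC at 2 places and the Mir671 hairpin at 0; among all 1005 mouse hairpins of that table, of any length, 246 (24.5%) held GGAC. A match is a description of these letters and no methylated site. In the mature RNAs that follow, capitals mark the seed (bases 2 to 8), and no seed is shared between them.
miR-675-5p: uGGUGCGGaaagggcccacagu
miR-675-3p: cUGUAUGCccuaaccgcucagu
miR-671-5p: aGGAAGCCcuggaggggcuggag
miR-671-3p: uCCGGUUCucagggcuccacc
miR-8114: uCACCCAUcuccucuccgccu

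The list was broad and most of its peaks were small. The median fold was 7.03 (6.99 to 7.19), with quartiles of 3.84 and 13.1 and a range from 1.12 to 193. The median log10 q was -7.69, with quartiles of -22.8 and -3.6. Peaks with q at or under 1e-10 are called strong below, and they made up 9142 peaks (43.2%). A fold of at least 10 was listed for 7869 peaks (37.2%), and 48.2% of those were strong. A fold under 2 was listed for 859 (4.06%), and 145 of those were strong. Protein-coding genes carried 19361 of the peaks, genes of RefSeq type lncRNA 544 and pseudogenes 441. The pseudogene peaks had a median fold of 4.99, and copies of a gene can share reads in a way the sources used here do not describe, so their assignment is uncertain.

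The largest folds belonged to genes of varied function, several of them regulators. Within the 25% of peaks of smallest q, the largest was that of Wnt11, a secreted Wnt ligand of heart development (chr7:98499531-98502844, 2 blocks, 721 exonic bases, fold 193, log10 q -55.4). Next came Zfp366, a zinc finger factor, whose peak of 780 bases had a fold of 184. Its other 3 peaks had folds of 21.6, 8.44 and 12.3. Klc3, a kinesin light chain gene, followed with 149, but 567 of the 684 bases of that peak were also in a peak of Ercc2 on the opposite strand (fold 134), so the signal cannot be given to either gene. Znhit6, which encodes an assembly factor of small nucleolar ribonucleoproteins, had 148, and the predicted gene Gm48226 had 140. Tor4a and Kctd1 each had 128, and Kitl, which encodes the ligand of the receptor KIT, had 126. Kitl also had a peak of fold 6.68 just downstream, so peaks of very different fold lay side by side in the same transcript.

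The smallest p-values belonged mainly to genes known to be abundant in heart muscle, at folds on both sides of the median of 7.03. Log10 p was listed as minus infinity for 3 peaks, those of Tcim (fold 47.2), the growth factor binding gene Igfbp5 (39.1, a peak of 2242 bases) and the endothelial gene Mmrn2 (36.2). Of the 1273 bases of the Tcim peak, 218 were also in a peak of Gm26714 on the other strand (fold 3.75). The smallest finite value was that of Myh6, the adult alpha myosin heavy chain, with log10 p -16500 at a fold of 8.60. The mitochondrial transcript mt-Nd5 had -9520 at a fold of 8.76, and Tnnt2, cardiac troponin T, had -5810 at 7.52. Atp2a2, the calcium pump of the sarcoplasmic reticulum, had -3580 at 12.5. Nppa, which encodes atrial natriuretic peptide, had -3560 at 3.89, and Des, which encodes desmin, had -3130 at 5.36. At folds under 2 the smallest p values were those of mt-Nd6 (fold 1.60, log10 p -824) and Myl2, the ventricular myosin light chain (1.90, -178); mt-Nd6 was named after its values were seen. In 197 peaks log10 q was listed as minus infinity and gives no order among them.

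Wtap itself, the targeted gene, had 4 peaks on the minus strand of chromosome 17. From 3′ to 5′ along the gene, their folds were 4.58 (chr17:13186460-13186908), 28.1 (chr17:13193479-13193957), 3.13 (chr17:13194166-13194316) and 6.56 (chr17:13210995-13211114). Log10 q was -39.3, -59.3, -4.53 and -1.80, so 2 of the 4 were strong and the most 5′ one was close to the authors' threshold. Peaks called within 1 genotype are no check of the deletion, and whether any of them lies in the deleted part was not analysed here.

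Exonic width, the sum of a peak's blocks, had a median of 241 bases, with quartiles of 180 and 391 and a range from 84 to 5053. Of the peaks with 1 block, 86.2% had a width within 1 base of a multiple of 30, so widths are counted in steps rather than measured to the base. Wider peaks were more often strong: 0.519% of the 1349 peaks under 100 bases were strong, 5.45% of those from 100 to under 200, 54.8% from 200 to under 500, 87.3% from 500 to under 1000 and 98.1% of the 641 peaks of 1000 bases or more. The median fold over the same classes went from 4.55 to 4.92, 7.03, 11.2 and 15.9. The number of reads in a peak is not in the list, and its part in the share of strong peaks was not tested. The widest peak was that of Akap12, a scaffold for protein kinase A, with 5053 bases in 2 blocks at a fold of 16.0. Plec, which encodes the cytolinker plectin, had a peak of 4349 bases (fold 21.2), Nes, which encodes the intermediate filament nestin, 4137 (18.7), and Ankrd11, a chromatin regulator gene, 4108 (16.0). Irf2bpl had 3320 bases at a fold of 13.1.

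**Figure D1:**
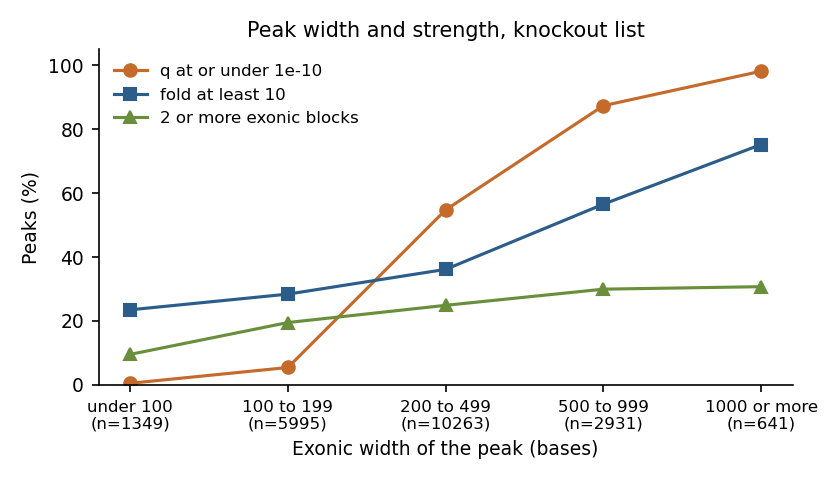
Share of peaks (%, vertical axis) that were strong (q at or under 1e-10), had a fold of at least 10, or had 2 or more exonic blocks, by exonic width in bases (horizontal axis, 5 classes with their number of peaks). The strong share climbs from 0.519% to 98.1%, the share of high fold from 23.5% to 75.2%, and the share with 2 or more blocks from 9.56% to 30.7%.

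Peaks of 2 or more exonic blocks, which run across at least 1 splice junction, numbered 4930 (23.3%). There were 3780 with 2 blocks, 802 with 3 and 348 with 4 or more. Their median fold differed little with the number of blocks (7.03 for 1 block, 7.31 for 2, 7.23 for 3 and 8.19 for 4 or more), while the strong share was 38.8%, 53.4%, 65.2% and 83.3%. The most blocks, 24, were in a peak of Eln, which encodes the elastic fibre protein elastin (1860 exonic bases, fold 9.10). Myosin and collagen genes filled most of the other places: Myh7b had a peak of 20 blocks and 3915 bases, Myh6 one of 18 blocks and 3408 bases, Myh7 and the nonmuscle myosin gene Myh9 peaks of 16, Col4a2 of 16 and Col4a1 of 15. As background, myosin heavy chain and collagen genes are built of many short exons. The 16-block peak of Myh7 shared 398 bases with a peak of Mhrt, 142 with one of Gm29015 and 170 with one of Gm31251, all on the other strand; reads of an overlapping pair cannot be told apart without strand.

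Of the 10904 genes, 5255 (48.2%, 47.3 to 49.1) had 1 peak and 5649 (51.8%) had 2 or more. Only 485 genes (4.45%) had 5 or more, and these held 13.8% of all peaks. The median fold was 7.60 in genes with 1 peak, 7.27 with 2, 6.71 with 3 and 6.69 with 4, while the median of a gene's largest fold was 7.60, 11.3, 13.6 and 15. The largest of several values is higher by construction.

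As background, several of the genes with most peaks encode very large proteins. Protein length was not analysed here. Ahnak, a giant scaffold under the plasma membrane, had 21 peaks with folds from 1.80 to 9.87, and 12 of them were strong. Spen, which encodes a transcriptional corepressor that binds Xist RNA, had 15, of which the highest fold was 82.5 in a peak of 1290 bases. Myo18a, an unconventional myosin gene, had 14 peaks, 12 of them strong, at a median fold of 4.96. Fat4, a giant cadherin gene, and Stard9, a mitotic kinesin gene, had 13 each. Of these, Fat4 had 2 strong peaks at a median fold of 13.1. Ahnak and Myo18a thus held mostly strong calls at low fold, and Fat4 mostly weaker calls at higher fold. The symbol Pakap had 16 rows, but under 2 gene identifiers that list nearly the same 8 intervals, so it counts as 8 peaks.

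**Figure D2:**
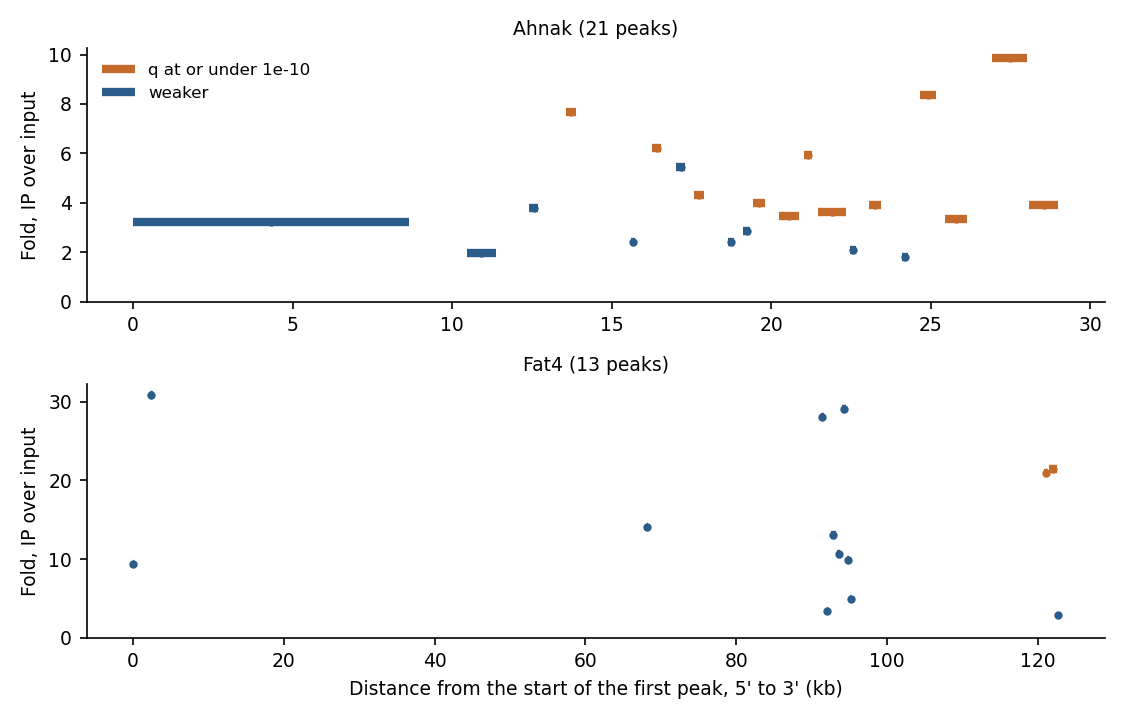
Peaks of Ahnak (top, 21 peaks) and Fat4 (bottom, 13 peaks) from 5′ to 3′, with distance from the start of the first peak in kb (horizontal axis) and fold of IP over input (vertical axis). Bars give each peak's span, introns included, and orange marks q at or under 1e-10: 12 such peaks in Ahnak, mostly in the 3′ part, and 2 in Fat4, both near the 3′ end.

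Along genes, fold and p pointed to opposite ends. In the 2491 genes with 3 or more peaks and no tie, the peak of largest fold was the most 5′ one in 45.1% (43.1 to 47.1), an inner one in 34.6% and the most 3′ one in 20.3% (18.7 to 21.9). If every peak of a gene had the same share, each end would hold 28.3% and the inner peaks 43.5%. By smallest log10 p the order turned: 20.8% had it at the first peak, 42.3% at an inner one and 36.9% (35.0 to 38.9) at the last. The median fold was 9.85 for first, 6.16 for inner and 5.22 for last peaks, while the median log10 q was -6.18, -8.04 and -10.1. First peaks crossed a splice junction in 31.9%, inner ones in 22.4% and last ones in 11.9%. When only strong peaks were used, the largest fold was first in 52.5% of genes and last in 16.2%, against an equal share of 30.1% for each end.

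**Figure D3:**
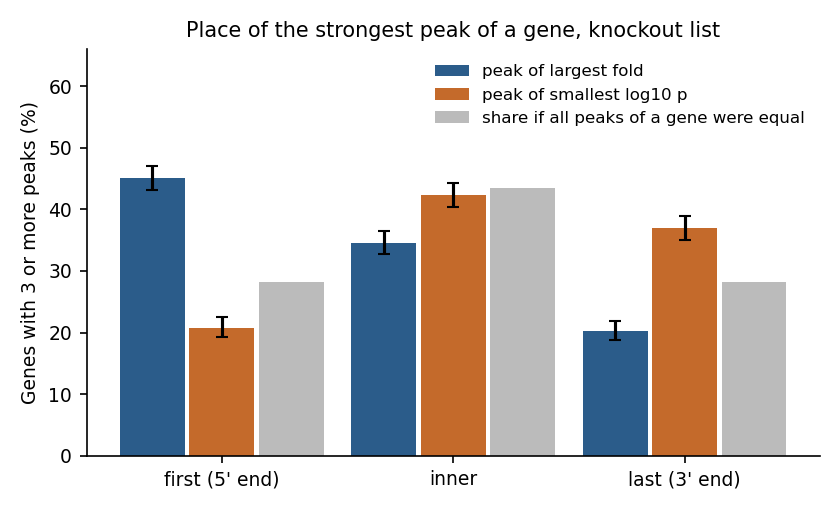
Place of a gene's strongest peak, as the share (%, vertical axis) of genes with 3 or more peaks, by largest fold (blue) and by smallest log10 p (orange), beside the share if all peaks of a gene were equal (grey). Bars start at 0 and whiskers are exact 95% intervals; by fold the first peak leads with 45.1%, by log10 p the last peak stands at 36.9% and the first at 20.8%.

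In genes with 2, 3, 4 or 5 peaks, the first peak had the highest median fold. In the 3119 genes with 2 peaks the median fold was 8.91 at the first and 6.16 at the last. In the 1420 genes with 3 peaks it was 9.38, 5.94 and 5.19. In the 625 genes with 4 it was 10.3, 6.88, 5.75 and 5.06, and in the 259 genes with 5 it was 10.3, 6.98, 5.86, 6.33 and 5.52. The quartiles overlapped widely at every place, and in 32.3% of genes with 3 or more peaks the last peak had a larger fold than the first. Named genes showed both patterns: Zc3h13 had 14.5 at its first peak and 3.97 at its last, while Ahnak had 3.22 and 3.90.

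**Figure D4:**
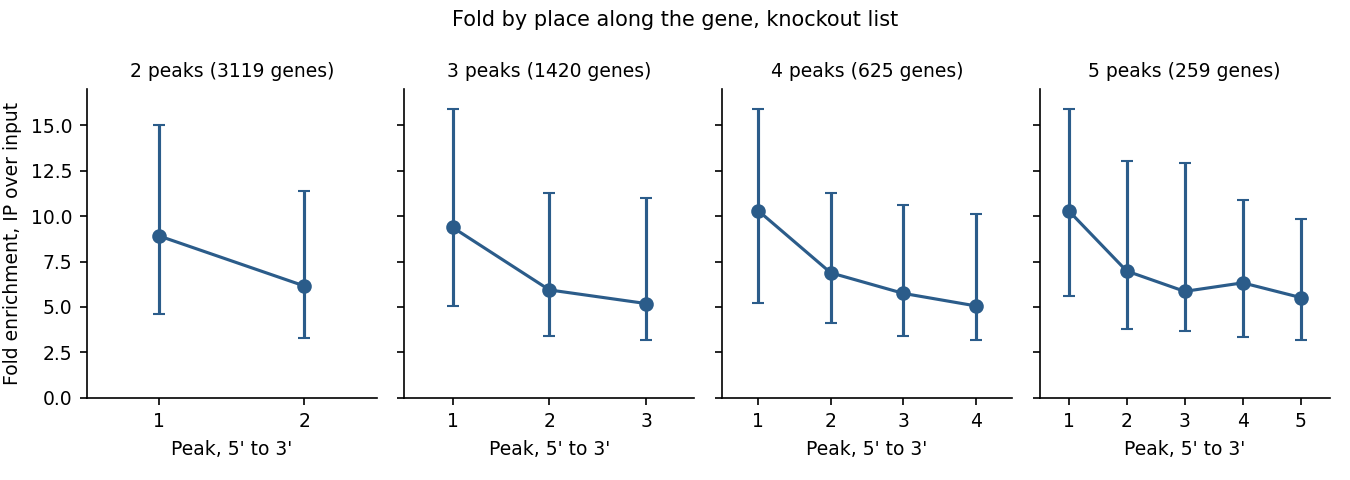
Median fold of IP over input (points, vertical axis) with quartiles (whiskers) by place of the peak from 5′ to 3′ (horizontal axis), in genes with 2, 3, 4 and 5 peaks. The first peak has the highest median in each panel, from 8.91 to 10.3, and the last peak lies between 5.06 and 6.16.

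Some folds were shared exactly by many peaks. The pair of fold 13.1 and log10 p -3.13 was listed for 218 peaks, the pair 12.2 and -2.87 for 183, and the pair 14.1 and -3.39 for 171. Among peaks with a fold of 10 to 100, 65.6% lay at a whole multiple of 0.9375 within 0.051, against the 10.9% that this tolerance covers. Below a fold of 5 it was 6.98% within 0.005, against 1.09%. The step was chosen as the best fit to the folds under 10, so the share below 5 is no separate support for it. A pair listed for at least 10 peaks was held by 50% of the 3786 peaks with q above 0.001 and by 0.142% of the strong ones. Such pairs were held by 22.9% of first peaks, 14.1% of inner and 11.6% of last ones; their part in the order of folds was not tested. The sources used here do not say what a step of the fold stands for. The fold of 13.1 in Meg3 and that of 12.2 in Tbx5 were among these repeated values.

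The list also repeated some of its content. Its chromosome order ran through once over 20738 peaks and began again for 441 more, in 249 genes, of which 155 were already present. In 150 genes 383 peaks overlapped another peak of the same gene, and joining these left 20985 separate peaks. Egr3 had 8 listed peaks but 4 separate ones, Malat1 4 and 2, Usp27x 6 and 3 and Rbm15b 5 and 4. Counts below are of listed peaks. Joining lowered, for example, the count of Rik cDNA genes from 555 to 519, of predicted Gm genes from 1183 to 1158, of Zfp genes from 744 to 740 and of protocadherins from 95 to 92. It lowered that of immediate early genes from 67 to 62, of long noncoding RNAs from 35 to 32 and of m6A writers from 27 to 26.

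By chromosome, the most peaks lay on 11 (1805), 7 (1770) and 2 (1612). Of RefSeq coding genes, matched by gene identifier and otherwise by symbol or synonym, 9522 of 21900 (43.5%) had a peak. The total includes 13 mitochondrial coding genes, none of which was matched to the list. The share was 52.7% (50.2 to 55.2) on chromosome 11, 52.5% on 8 and 50.9% on 18, against 37.5% on 7 and 37.6% on 14. On X it was 26.4% (23.6 to 29.3), against 44.8% (44.2 to 45.5) over the autosomes, and X genes with a peak had 1.59 peaks each against 1.95. Median folds ran from 6.56 to 8.17 over the autosomes and stood at 8.33 on X. Chromosome Y had 4 peaks, 3 in Kdm5d, a histone demethylase gene, with folds of 3.44, 15.9 and 19.7. The mitochondrial genome had 4, all strong: 2 in mt-Nd2 (6.18 and 2.57) and 1 each in mt-Nd5 and mt-Nd6. Which genes lie on a chromosome was not set against these shares. Of 1465 coding olfactory and vomeronasal receptor genes of RefSeq, 3 had a peak.

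Gene families of 20 or more peaks, formed from symbols, spanned median folds from 2.72 to 12.2. At the low end stood genes of energy supply and translation. Mitochondrial ribosomal protein genes had 71 peaks in 54 genes (52 of 78 coding genes of RefSeq, against 43.5% of all), with a median fold of 2.72 and 7 peaks at 10 or more (9.86%, against 37.2% of all peaks). Genes of oxidative phosphorylation had 81 peaks in 71 genes (63 of 96 coding genes), with a median fold of 3.15, and 65.4% (54.0 to 75.7) were strong, against 43.2% of all peaks. Ndufb10, a complex I subunit gene, had folds of 2.32, 2.25 and 3.24, all strong, and Atp5j, an ATP synthase subunit gene, had 2.39 to 5.35. Cytosolic ribosomal protein genes had 43 peaks in 33 genes (32 of 88 coding genes, 36.4%, against 43.5% of all coding genes), at a median fold of 3.78. Proteasome genes followed with 4.78, mitochondrial carriers of the Slc25 family with 4.45, and heat shock and DnaJ genes with 5.63, where Hspa5, the chaperone of the endoplasmic reticulum, had 1.33 to 6.01.

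At the high end stood protocadherins, potassium channels, Rik cDNA genes and several families of DNA-binding factors. Matrix proteases (9.71), Ccdc coiled coil genes (9.38) and Fat, Dachsous and Celsr cadherins (9.14) also stood there, above the Zfp genes. Sodium and calcium channels (5.77) and integrins and laminins (5.62) lay below the median of all peaks. Protocadherins, which mediate adhesion between cells, had 95 peaks in 36 of 69 genes, with a median fold of 12.2; 68.4% had a fold of at least 10 and 26.3% (17.8 to 36.4) were strong. None of the 95 crossed a junction, against 23.3% of all peaks; much of a protocadherin is encoded by a single large exon. Pcdh17 had 9 peaks with folds from 7.5 to 27.2 and 2 strong ones, and Pcdh1 had 9 with 5 strong. Potassium channel genes had a median fold of 10.3 with 25.4% strong. The Fox, Sox, Klf, Hox and Tbx factors had 125 peaks in 57 genes (54 of 132 coding genes, 40.9%, against 43.5% of all coding genes) at a median fold of 11.3. Zfp zinc finger genes, the largest family after the predicted Gm genes, had 744 peaks in 298 genes, among them 294 of 398 coding genes (73.9%, 69.3 to 78.1), at a median fold of 8.91. Zfp469 had 11 peaks, none strong, with folds of 2.60 to 17.8. Zbtb and Znf factors had a peak in 40 of 42 coding genes.

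**Figure D5:**
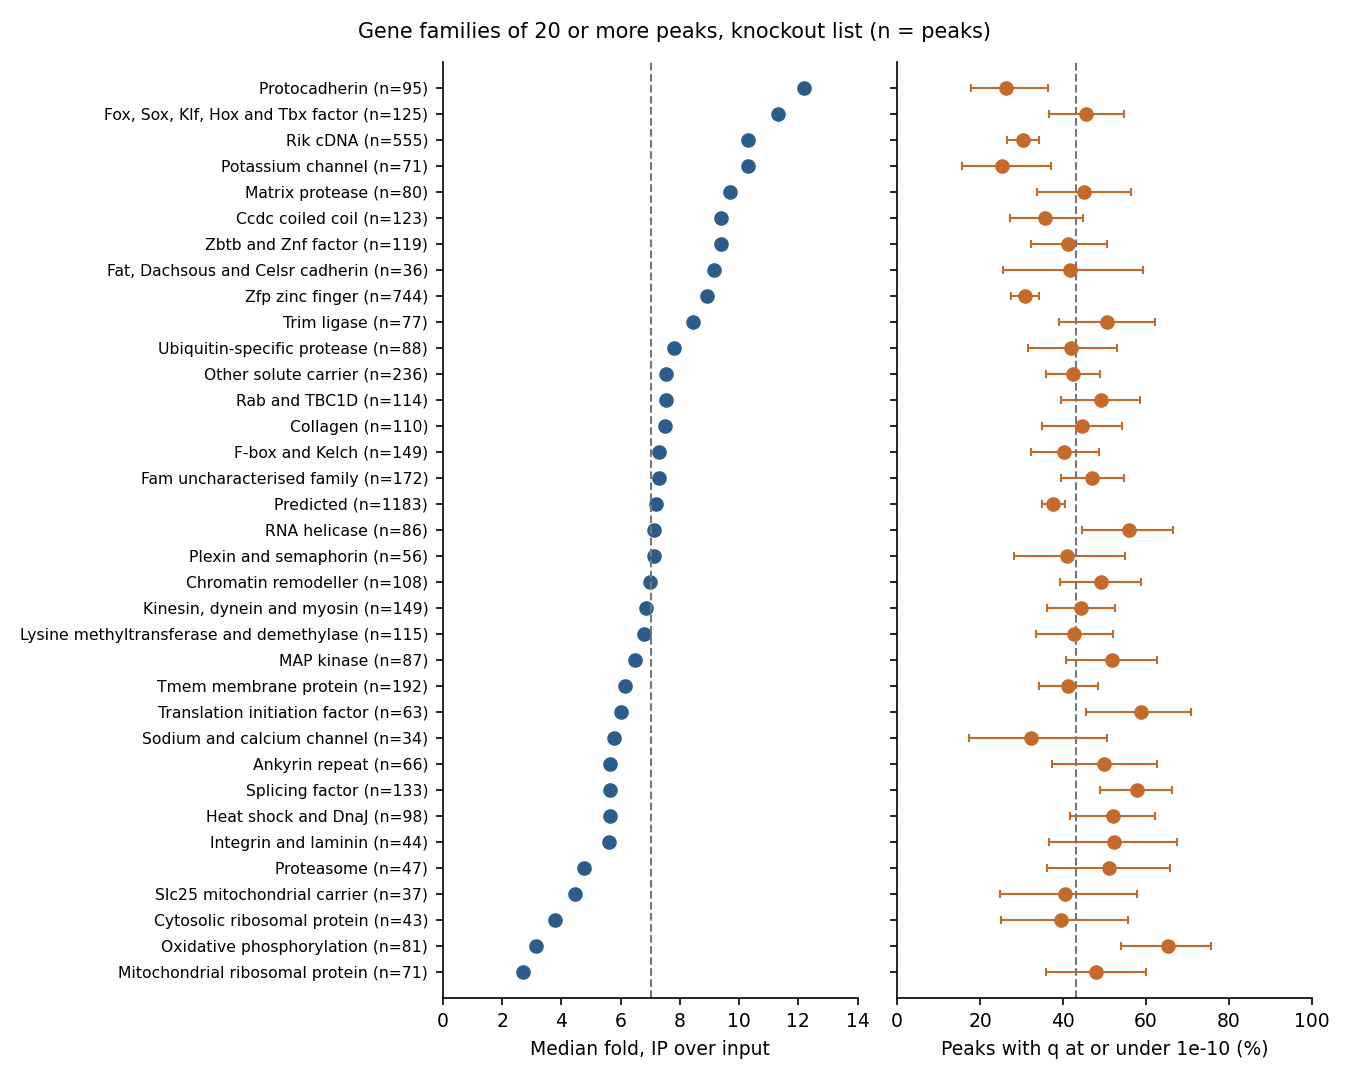
Gene families of 20 or more peaks, ordered by the median fold of IP over input (left panel, horizontal axis), with the share of peaks with q at or under 1e-10 (right panel, %, whiskers are exact 95% intervals). Dashed lines mark all peaks of the list (7.03 and 43.2%); protocadherins stand highest by fold (12.2) with 26.3% strong, and mitochondrial ribosomal protein genes lowest (2.72) with 47.9%.

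Several families of nuclear regulators had a peak in more of their coding genes than the 43.5% of all coding genes. This was not particular to them: plexins and semaphorins stood at 79.3%, ubiquitin-specific proteases at 77.2% and MAP kinase genes at 70.4%. The Fox, Sox, Klf, Hox and Tbx factors lay lower, at 40.9%. Lysine methyltransferase and demethylase genes had a peak in 32 of 36 (88.9%, 73.9 to 96.9) and 3.59 peaks per gene, led by Kmt2d, an H3K4 methyltransferase gene, with 11 (folds 3.52 to 13.5). Chromatin remodeller genes had one in 35 of 42, led by Chd4, a NuRD subunit gene, with 10 peaks, 6 of them strong. Splicing factor genes had one in 63 of 78 (80.8%), and RNA helicase genes in 41 of 53 (77.4%). Helicase peaks crossed a junction in 53.5% and collagen peaks in 52.7%, against 23.3% of all peaks. Collagens had 110 peaks in 31 of 44 coding genes; Col6a3 had 10 (folds 2.11 to 17.1) and Col6a6 had 9 (3.94 to 50.6). Fat, Dachsous and Celsr cadherins had 36 peaks in 5 genes. Keratin genes had a peak in 3 of 109. Predicted genes whose symbols start with Gm made up 1183 peaks in 923 genes (median fold 7.19), and Rik cDNA genes 555 peaks (median fold 10.3, 30.3% strong). Of Gm peaks and Rik peaks many lay opposite another gene: Gm genes were 23.4% of peaks overlapped on the other strand and 4.11% of the others, and Rik genes 9.52% and 2.05%.

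Markers of the labelled tissue, heart, were in the list, though a peak is no measure of a marker's RNA level. All 13 cardiomyocyte markers had a peak, and 34 of their 37 peaks were strong (91.9%, 78.1 to 98.3, against 43.2% of all peaks). Their median fold was 3.28, and 0 of 37 reached a fold of 10, against 37.2% of all peaks. Tnnt2 had 6 peaks with folds of 4.37, 3.28, 5.65, 2.38, 7.52 and 2.45, all strong. Mybpc3, cardiac myosin binding protein C, had 3.33, 2.49, 1.72 and 1.36, all strong. Of all coding genes 43.5% had a peak; of markers of other cell types, these were 14 of 14 endothelial, 12 of 13 fibroblast, 9 of 10 smooth muscle and pericyte, 6 of 12 immune, 4 of 10 erythroid, 3 of 8 epicardial and 2 of 10 neural and Schwann markers, while 0 of 11 skeletal muscle markers had a peak. The immune markers Ptprc and Cd68, the erythroid markers Hba-a1 and Slc4a1 and the Schwann cell marker Sox10 were among those with none. Endothelial peaks had a median fold of 9.24 and 21 of 31 were strong; Npr3, an endocardial receptor gene, had 11.4, 18.4, 11.7 and 14.3. Fibroblast peaks had a median fold of 5.12, and Col1a1 had 5 peaks of 1.71 to 3.94. Hbb-bs, an adult beta globin gene, had a fold of 51.6. The list does not tell how much of each cell type the pooled hearts held.

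Genes of the contractile apparatus shared the low folds and small q of the cardiomyocyte markers, with which these lists overlap. Of the thick filament and giant protein genes 16 of 17 had a peak, against 43.5% of all coding genes (67 peaks, median fold 3.88, 64.2% strong), and only Neb, which encodes the skeletal muscle protein nebulin, had none. Myh6 had folds of 3.88, 8.60, 1.55 and 1.89 from 3′ to 5′, all strong. Speg, which encodes a kinase at the junctions of the sarcoplasmic reticulum, had 10 peaks of 3.0 to 10.9. Thin filament and Z-disc genes had a peak in 23 of 24, and 52 of their 60 peaks were strong (86.7%) at a median fold of 3.60. Xirp1, an actin-binding gene, had 8 peaks with folds from 1.23 to 4.59. Nexn, a Z-disc gene, had the highest fold of these thin filament and Z-disc genes. It had 44.1 and 9.38 at its 5′ end and 1.43 to 3.11 in its other 3 peaks. Folds above 10 were also listed in Tmod1 (18.8), Ldb3 (15.6) and Synpo2l (15.5), named beyond the rule.

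Calcium handling genes had a peak in 22 of 23, against 43.5% of all coding genes (39 peaks, median fold 4.72, 69.2% strong). Jph2, which ties the surface membrane to the sarcoplasmic reticulum, had 3.79, 6.16, 4.72 and 10.8 from 3′ to 5′, all strong. Srl, which encodes the sarcoplasmic reticulum protein sarcalumenin, had 1.49, 2.30 and 13.3 in the same direction, so both had their largest fold at the most 5′ peak. Intercalated disc and dystrophin complex genes had fewer members in the list, 14 of 22. Those without a peak included the desmosome genes Dsg2 and Dsc2, the dystrophin gene Dmd and the utrophin gene Utrn. Dag1, which encodes dystroglycan, had 5 peaks of 1.33 to 6.28. Cytolinkers, ankyrins and spectrins had 77 peaks in 14 of 16 genes; beside Ahnak, Macf1, Ahnak2 and Dst had 9 each, and of the 9 peaks of Ahnak2 1 was strong.

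Of fuel metabolism, 18 of 26 fatty acid oxidation genes and 19 of 26 glycolysis and pyruvate genes had a peak, against 43.5% of all coding genes, with median folds of 4.76 and 3.57. Cpt1b, the carnitine palmitoyltransferase of muscle mitochondria, had 1.71 and 14.6, and Acads, a short-chain dehydrogenase gene, had 8.48 and 2.79. Fabp3, Acsl1 and Hadhb had none, nor did Pgk1, Eno1, Ldha and Ldhb, which encode abundant enzymes. Hk1, a hexokinase gene, had 1.41, 1.47, 3.13 and 4.92.

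All 27 cardiac transcription factors had a peak (69 peaks, median fold 6.49, 42.0% strong, against 43.2% of all peaks and 43.5% of all coding genes with a peak). Tbx5, a T-box factor of the chambers, had 5 peaks of 5.74 to 12.2, of which 1 was strong. Tbx2, a repressor of chamber genes, had 15.0, 15.5, 35.1 and 17.5, of which 2 were strong. Irx5 had 17.8, 9.13, 2.16 and 2.63, and Mrtfb, a coactivator of SRF, had 3.0 to 18.8. Of the Wnt, Hippo, Notch and BMP genes 40 of 43 had a peak (113 peaks, median fold 7.5, 55.8% strong). Amotl2 and Lats2 of the Hippo pathway, the receptor gene Notch2 and Apc of the Wnt pathway had 6 each; those of Amotl2 ran from 2.18 to 8.65 and those of Notch2 from 3.49 to 15.7. Tcf7l2, Lef1 and Bmp10 had none. Cell cycle genes were in the list for 20 of 30. Mki67, the proliferation marker, had 8 peaks of 4.07 to 20.6, and Cenpe, a centromere kinesin gene, 7 of 4.81 to 46, while Ccnb1, Cdk1, Plk1 and 7 others had none.

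Immediate early and cytokine feedback genes, whose RNAs turn over quickly, all had a peak (29 of 29, against 43.5% of all coding genes; 67 listed and 62 separate peaks). Their median fold was 9.52, and 62.7% (50 to 74.2) were strong, against 43.2% of all peaks. A fold of at least 10 was listed for 46.3% (34.0 to 58.9), an interval that holds the 37.2% of all peaks. Egr1 had 14.1, 4.16 and 25.1, the last in a peak of 1674 bases. Dusp6, which encodes a phosphatase of ERK, had 5.39, 8.86, 2.99 and 5.12, all strong. Klf6 had 2.91, 8.63 and 6.19. The 8 listed peaks of Egr3 had folds of 4.50 to 16.9 and none was strong. Cardiac stress genes had a peak in 15 of 17 at a median fold of 3.52; Myh7, the fetal beta myosin heavy chain, had 7.76, 3.52, 9.03 and 2.02, and Cdkn1a, an inhibitor of cell cycle kinases, had 9.38, 11.2 and 2.54.

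Long noncoding RNAs on the list used here had a peak in 12 of 22, where 43.5% of all coding genes had one. Their 35 peaks had a median fold of 10.3, against 7.03 of all peaks. Of these peaks 54.3% (36.6 to 71.2) were strong, an interval that holds the 43.2% of all peaks. Tug1 had 9, with folds from 2.58 to 64.7, and 6 were strong; the peak of fold 64.7 was 630 bases wide. All 419 bases of its most 5′ peak (fold 10.3) lay opposite a peak on the other strand. Malat1, a nuclear speckle RNA, had peaks of 1379 bases at a fold of 5.75 and of 343 bases at 11.7. Meg3, an imprinted RNA, had 2.28, 13.1, 17.8 and 6.88, and only the most 3′ was strong. Airn, the imprinted RNA antisense to Igf2r, had 5 peaks of 2.39 to 14.1. Xist, Tsix, Miat and Carmn were among the 10 with none. Over all 355 genes of RefSeq type lncRNA, the median fold was also 10.3, but 28.5% (24.7 to 32.5) were strong.

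The m6A machinery carried peaks in its own transcripts. Of the writer genes 8 of 11 had one, against 43.5% of all coding genes (27 listed and 26 separate peaks, median fold 5.84, 13 strong), and Mettl3, the catalytic subunit gene, Mettl5 and Zcchc4 had none. Zc3h13 had 14.5, 16.6, 5.84, 16.1 and 3.97. Rbm15b had 5 listed and 4 separate peaks of 8.14 to 40.3, all strong, and Virma 5 of 2.81 to 4.60, none strong. The other writer genes with a peak, named beyond the rule, were Mettl14 (1 peak, fold 5.94), Rbm15 (3, up to 19.9), Cbll1, which encodes HAKAI (3, up to 18.8), and Mettl16, which encodes a separate methyltransferase (1, fold 5.0). Of the eraser and reader genes 10 of 14 had a peak (30 peaks, median fold 4.86, 20 strong), and Fto, Ythdc2, Igf2bp1 and Igf2bp3 had none. Ythdc1, the nuclear reader, had the most with 7, at folds of 46.9, 7.01, 5.63, 5.47, 32.8, 35.1 and 4.25. Prrc2a had 5 of 3.19 to 13.6, Hnrnpa2b1 4 of 1.57 to 4.09, and Ythdf2, a reader tied to decay, 3 of 1.99 to 3.72. Alkbh5, also named beyond the rule, had 1 peak of 809 bases at a fold of 16.0.

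Peaks of different genes overlapped in places. A peak of another gene on the opposite strand overlapped 1618 peaks (7.64%, 7.29 to 8.01) by at least 1 exonic base, and 5.94% over 50% or more of their bases. Their median fold was 7.5 and 45.1% were strong, against 7.03 and 43.0% of the others. On the same strand, 626 peaks (2.96%) overlapped a peak of another gene. Values of such peaks, including those of Klc3, Myh7, Tcim and the microRNA genes above, belong to a position shared by more than 1 gene.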

How the data were processed

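Heart RNA of the knockout mice was pooled, fragmented to about 100 nt and immunoprecipitated for 2 h with an antibody to m6A, and IP and input were sequenced as 150-base paired reads, per the labels' protocols. The authors called peaks with exomePeak 2.16.0 at a q of 0.05, per the series' design text. The build is GRCm39, and BWA 0.7.12, fastp 0.19.11 and HOMER 4.9.1 are named, per the submitters' processing notes, which give no roles. The deposited score column is the p-value of each peak. The authors' log10 p and log10 q are a score that reaches minus infinity. The authors' fold enrichment is a ratio, IP over input on a linear scale, and the sources used here do not say how it was scaled. The deposited block count of a peak is its number of exonic blocks.

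Scripts ran on Python 3.11.15 with pandas 2.3.3, scipy 1.17.1, numpy 2.4.6 and matplotlib 3.10.9. No filter was applied. Genes were counted by gene identifier. They were matched to RefSeq GRCm38.p6 by identifier, then symbol, then a unique synonym, for names and types only (10331 genes matched). First and last peaks follow the annotated strand. The counting code was tested on simulated peaks. Transcript regions and motifs in peaks need the genome of GRCm39 and were not analysed here.

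The peak list, the 39 symbol families, the 24 gene lists and the rules were chosen with earlier results of these data known. Named genes are Wtap, the 12 genes with most peaks, and the 10 genes each with the largest fold (within the 25% of peaks of smallest q), the smallest p, the widest peak and the most blocks. Also named are up to 2 genes per family and 4 per list with most peaks, the leading gene per chromosome, and list members without a peak. H19, the microRNA genes and the genes overlapping named peaks were added after their values were seen. Alternatives were a q of 0.001, a fold of at least 2, joined overlapping peaks, peaks free of overlap on the other strand, and leaving out predicted, Rik, mitochondrial and ribosomal protein genes. Results for some single genes are left out of the text.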

Additional observations from a re-analysis of the deposited data

How the results depend on the processing

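The numbers of peaks and genes stayed within 1.5 times under all 5 alternatives run on the whole list, and joining overlapping peaks or dropping peaks overlapped on the other strand moved no summary beyond its interval. At q at or under 0.001 the share of genes with 2 or more peaks was 47.3%, the median width 298 bases, the median fold 7.27 and the share of peaks with 2 or more blocks 25.1%. At a fold of at least 2 the share of such genes was 50.4% and the median fold 7.5. Without predicted, Rik, mitochondrial and ribosomal protein genes, 55.5% of genes had 2 or more peaks and 23.9% of peaks had 2 or more blocks. With 3 or more peaks as the definition, 23.2% of genes qualified. With 1 peak per gene, that of smallest p, the median fold was 8.84 and the median width 300 bases. Over 50% of a peak's bases, overlap on the other strand fell to 5.94%. The share of genes whose strongest peak was the most 3′ one reversed relative to the equal share of 28.3%: it was 20.3% by fold and 36.9% by log10 p. It was 38.7% in genes with 2 peaks, where the equal share is 50%, and 16.2% among strong peaks, an alternative chosen after seeing the data. Of 54 families and lists with 20 or more peaks, 49 to 54 kept their side of the overall median fold under the first 4 alternatives, and all 51 left under the fifth did; those that moved had medians of 6.57 to 7.31 over all peaks, except the Fat, Dachsous and Celsr cadherins, at 9.14 and 6.68 without peaks overlapped on the other strand. The share of coding genes with a peak stayed lower on X (22.3% to 26.4%) than on the autosomes (40.2% to 44.8%) throughout. Genes were matched by symbol alone for these shares. No paired analysis was possible because each group held 1 library. No replicate could be left out for the same reason, and depth is unknown, so the list cannot show which weak peaks would be called again.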
